A study of Homo sapiens with 8 samples.

Results

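Poly(A) site choice was described for 106 cell cycle and DNA replication genes, out of 7504 genes with values in at least 1 of 2 comparisons. The members were taken by symbol: cyclins, cyclin-dependent kinases and their inhibitors, CDC, MCM, E2F, ORC, anaphase-promoting complex, spindle checkpoint, replicative polymerase, RFC and CEP genes, without CDC42 and its binding or effector genes, CDC73, CDC5L, CDK12 and CDK13. The symbol pattern also took in 11 genes outside these roles, among them the HSP90 co-chaperone CDC37 and the splicing factor CDC40, and these were kept as a separate group. Of the members, 95 of 6541 genes were in the MDA-LM2 comparison, 99 of 6801 were in the sgHNRNPC comparison, and 88 were in both. CCNE1, CDK2, CDKN1A, MCM2, POLD1, POLE and CDC20 had no pair in either table analysed here.

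The study sequenced mRNA 3′ ends in 8 samples of human breast cancer cell lines, with 2 replicates in each of 4 groups. MDA-MB-231 is a line of triple-negative breast cancer, and MDA-LM2 is its derivative selected for metastasis to the lung. The groups sgControl and sgHNRNPC were MDA-MB-231 cells that carried dCas9-KRAB, a CRISPR interference repressor, with a control guide or a guide that lowers expression of HNRNPC, an RNA-binding protein of nuclear pre-mRNA. MDA-LM2 was compared with MDA-MB-231 to ask how site choice differed in the metastatic derivative, and sgHNRNPC with sgControl to ask what lowering HNRNPC did.

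The cell cycle is driven by kinases that become active when a cyclin binds them and that are held back by inhibitors. E2F factors turn on the genes of S phase, origins are licensed by ORC, CDC6 and the MCM helicase, and the replicative polymerases with the RFC clamp loader copy the DNA. In mitosis the spindle checkpoint, which includes BUB and MAD proteins, holds back the anaphase-promoting complex until chromosomes are attached, and centrosomal CEP proteins help to build centrosomes, centrioles and cilia. Many of these mRNAs have more than 1 poly(A) site, so that the length of the 3′ UTR, or the last exon itself, can vary.

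Each value was the logAPAR of a pair of poly(A) sites of 1 gene, which is the log change in the ratio of the proximal to the distal site. A value below 0 means relatively more of the distal site in MDA-LM2 or sgHNRNPC cells. The logAPAR and its p-value are those the authors deposited, and the base of the logarithm was not given in the sources used here. Single-sample values and read depth were not analysed here, so error entered only through the deposited p-values. The paper gives biological duplicates for its RNA-seq. The p-values come from a logistic regression on normalized read counts, and how far they take in the spread between replicates was not tested. The p-value and the logAPAR of a pair together imply its standard error, from which 95% intervals were taken. In bulk RNA, fewer cells that use a site and less use of it per cell cannot be told apart.

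The members had a median of 3 sites, as did all genes. The MDA-LM2 table held 383 pairs of members, of which 33.4% joined 2 annotated transcript ends, against 24.4% of all pairs. Of the 427 member pairs of the sgHNRNPC comparison, 29.0% were of this kind, against 19.9% of all pairs. Among member pairs of 2 ends that could be placed on GRCh38, overlapping last exons were found for 16.5% (MDA-LM2) and 17.8% (sgHNRNPC), against 33.5% and 39.9% over all genes. The median distance between such ends was 14691 nt and 13379 nt in members, and 7418 nt and 5299 nt over all genes.

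Of 208 transcript ends listed for members, 186 had the same identifier and version in GENCODE release 44, which gave their place on GRCh38. The poly(A) signal AATAAA or its variant ATTAAA, searched on the transcript strand, was in the 50 nt before 44.6% of these ends, against 49.0% of all placed ends. At the ends of canonical transcripts the share was 89.5% of 57 member ends, against 82.6% of all. The annotation marked 20.4% of member ends as incomplete, with the true mRNA end not found, against 11.6% of all ends, and AATAAA or ATTAAA preceded 2 of these 38 member ends. A run of 5 T (TTTTT), the RNA form of which HNRNPC is known to bind, was within 100 nt of 53.8% of member ends, against 52.1% of all.

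The ends shown here are those of members with low p-values, given to show which of the compared ends carry a signal. They are 30 bases upstream of or at the transcript end, on GRCh38, 5′ to 3′ on the strand of the gene, with AATAAA or ATTAAA in capitals where it was found. CDK1 and MCM8 had a pair at a raw p under 0.01, and RFC1, CEP250 and E2F6 were added after their values were seen. The windows of CDK1, MCM8, CEP250 (complete end) and RFC1 (full-length end) lie in 3′ UTRs of protein-coding transcripts.
CDK1, ENST00000448257.6, chr10:60794799-60794828, + strand: atgtatatttaactaaaattactagctttg
MCM8, ENST00000610722.4, chr20:5998946-5998975, + strand: tacataacactgATTAAAaattttaaaaaa
RFC1, ENST00000349703.7, full-length end, chr4:39287462-39287491, - strand: attcattatggaAATAAAacattgcctaag
RFC1, ENST00000510783.5, end of a transcript with no defined coding sequence, chr4:39288697-39288726, - strand: ctccctcctgaccagtccagctggtctaga
CEP250, ENST00000397527.6, complete end, chr20:35519248-35519277, + strand: ttattttgtcacAATAAAaagtttgaaaat
CEP250, ENST00000425096.1, end marked as not found, chr20:35478067-35478096, + strand: aagagaaggaagaaattcaaaagaaactaa
E2F6, ENST00000428221.5, end of a nonsense-mediated decay transcript, chr2:11444375-11444404, - strand: tataaatgaagtatctctcgagtcactcca
The full-length ends of MCM8, RFC1 and CEP250 have a signal, while the CDK1, E2F6, shorter RFC1 and incomplete CEP250 ends have neither AATAAA nor ATTAAA in the 50 nt searched.

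In MDA-LM2 cells, CDK1, BUB3 and MCM8 were the members with a pair at a raw p under 0.01. These are 3 of 95 members, or 3.16%, beside 2.72% of all genes. At a raw p under 0.05 there were 11 members, or 11.6%, beside 11.01% of all genes, so neither share set the members apart. With the Benjamini-Hochberg adjustment over all pairs, 0 members passed an adjusted p of 0.05, beside 0.122% of all genes.
After HNRNPC knockdown, 0 of 99 members had a pair at a raw p under 0.01 in the APAlog fit, beside 1.62% of all genes. At a raw p under 0.05 there were 3 members (MCM4, CDKN2AIPNL and E2F6), or 3.03%, beside 4.51% of all genes. With z-scores rescaled to unit spread, a setting chosen after seeing the data, these 3 members had a raw p under 0.01, beside 6.04% of all genes, and CDK1, BUB3 and MCM8 remained below it in MDA-LM2 cells, beside 2.37% of all genes. None of the members passed an adjusted p of 0.05, beside 0.338% of all genes.

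For the direction over the members, the pair of the most proximal and the most distal site of each gene, the outermost pair, was used. In MDA-LM2 cells its value was below 0, towards the distal site, in 53 of 95 members, or 55.8%, and in 52.3% of all genes, with medians of -0.07 and -0.03. In sgHNRNPC cells it was below 0 in 55 of 99 members, or 55.6%, and in 57.9% of all genes, with medians of -0.07 and -0.11. The sign of the members' medians depended on the setting, as over all member pairs they were 0.01 (MDA-LM2) and 0.05 (sgHNRNPC). Over all pairs of all genes the medians were -0.01 and -0.08. The median implied standard error of a member's outermost pair was 0.738 (MDA-LM2) and 1.11 (sgHNRNPC), beside 0.741 and 0.998 over all genes. An interval reaching less than 1 unit on either side was available for 28 members (MDA-LM2) and 13 members (sgHNRNPC). These were 29.5% and 13.1% of members, beside 28.6% and 18.5% of all genes.

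The counts by role below describe the sign of the outermost value and not tested shifts. They stand beside shares below 0 of 52.3% (MDA-LM2) and 57.9% (sgHNRNPC) of all genes.

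**Figure D1:**
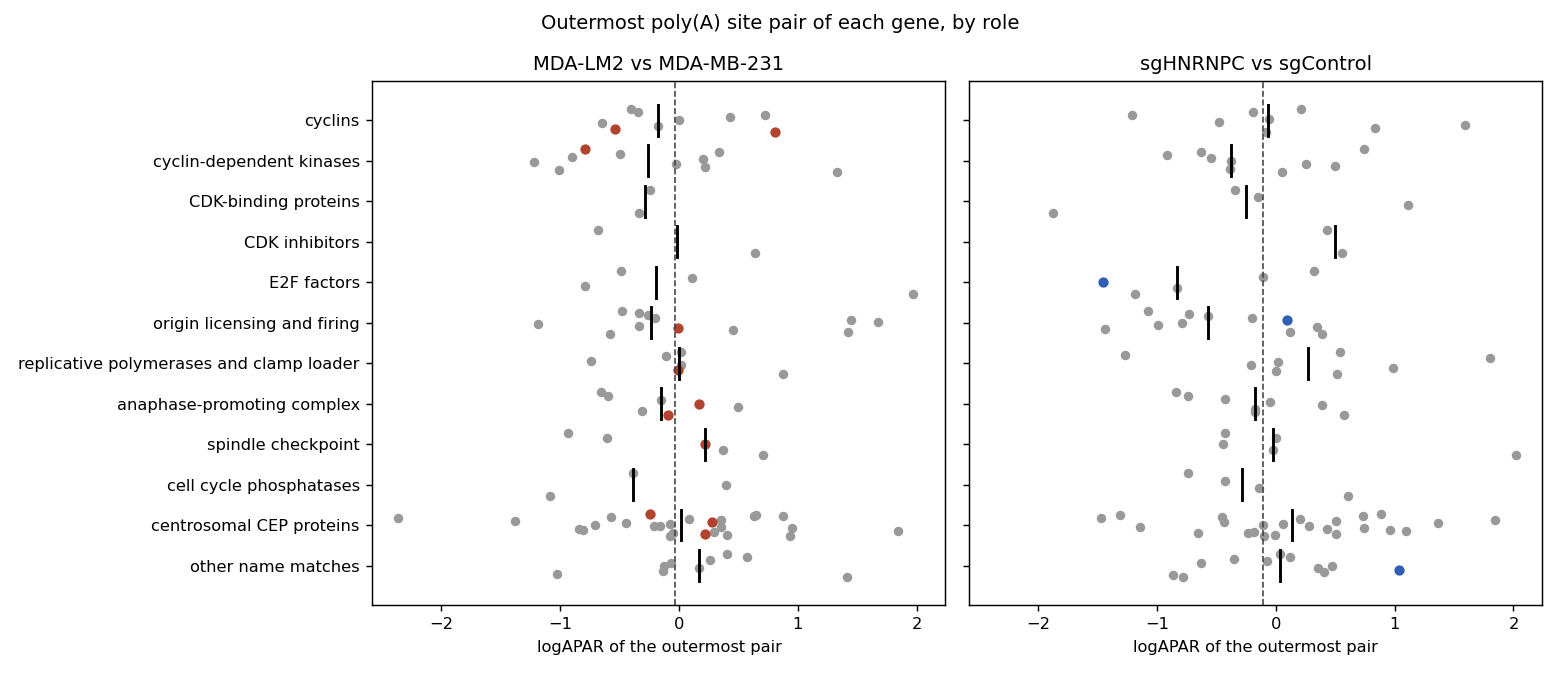
The logAPAR of the outermost pair of each member is plotted by role for both comparisons, with 1 point per gene, the group median as a black bar and the median of all genes as a dashed line. Coloured points are genes with any pair at a raw p under 0.05, and points of most roles lie on both sides of 0.

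Cyclins bind and activate the kinases. In MDA-LM2 cells 5 of 9 outermost pairs had values below 0, with a median of -0.17, and in sgHNRNPC cells 5 of 8, with a median of -0.07. CCND1, cyclin D1 of the G1 phase, had one of the most precise pairs, between 2 transcript ends, with a logAPAR of -0.02 (95% interval -0.30 to 0.26) in MDA-LM2 cells and -0.05 (-0.38 to 0.27) after HNRNPC knockdown. The outermost CCND1 pair in MDA-LM2 cells was another, with 0.43 (-1.43 to 2.28). CCNA2, the S and G2 cyclin, had an outermost logAPAR of -0.41 (-0.89 to 0.08) in MDA-LM2 cells and 0.21 (-0.35 to 0.76) after HNRNPC knockdown. CCNB1, the mitotic cyclin, had -0.34 (-0.90 to 0.21) and -0.19 (-1.84 to 1.46). The cyclins with a raw p under 0.05 were both L-type, which act in splicing and transcription rather than in cycle progression. CCNL1 had a logAPAR of -1.64 (-3.16 to -0.12, the authors' p = 0.035) in MDA-LM2 cells between the ends of a nonsense-mediated decay and a retained-intron transcript, and CCNL2 had 0.69 (0.00 to 1.38, p = 0.0496), over 0.05 after z-scores were rescaled. Their outermost pairs had -0.54 (-1.44 to 0.37) and 0.81 (-0.92 to 2.54) in MDA-LM2 cells.

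Among the cyclin-dependent kinases, CDK1, which drives entry into mitosis, had the lowest p-value of any member. The kinases had values below 0 in 6 of 10 cases in MDA-LM2 cells and in 5 of 9 after knockdown, with medians of -0.26 and -0.37. The 2 CDK1 sites in the MDA-LM2 table gave a logAPAR of -0.79 (-1.22 to -0.36, the authors' p = 0.000294, adjusted p = 0.234), towards the distal site, which is the transcript end shown first among the sequences. The same pair had a logAPAR of -0.30 (-0.77 to 0.16, the authors' p = 0.204) in sgHNRNPC cells. The difference between the comparisons was -0.49 (-1.12 to 0.14), so it was within its error. The outermost pair in sgHNRNPC cells was another, with 0.74 (-1.95 to 3.43). CDK1 lies at chr10:60778331-60794852 on the + strand of GRCh38. CDK4 and CDK6, the partners of D-type cyclins, had outermost values of 0.22 (-0.06 to 0.50) and -1.01 (-3.59 to 1.57) in MDA-LM2 cells, and 0.50 (-1.99 to 2.99) and -0.39 (-1.69 to 0.92) in sgHNRNPC cells, where the outermost pairs were different ones. The CDK4 pair of the MDA-LM2 value had 0.43 (-0.12 to 0.97) in sgHNRNPC cells, and the CDK6 pair of the sgHNRNPC value had -1.35 (-2.83 to 0.14) in MDA-LM2 cells. The interval for CDK4 in MDA-LM2 cells was among the narrowest of the set, and that for CDK6 covered shifts in either direction. The other kinases ranged from -1.22 to 1.33 in MDA-LM2 cells, and none had a raw p under 0.05. CDK16 was the member with one of the 98 HNRNPC-bound sequences that the study tabulated for its reporter assay. The paper counts far more bound mRNAs, so this list does not show which other members are bound. The CDK16 pair had a logAPAR of 0.21 (the authors' p = 0.34) in MDA-LM2 cells and -0.54 (-1.23 to 0.14, p = 0.119) after HNRNPC knockdown. Its proximal site was an end that the annotation marks as not found, and whether that end is a true poly(A) site was not tested.

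The CDK inhibitors listed were CDKN1B (p27) and CDKN1C (p57). CDKN1B had an outermost value of -0.68 (-2.15 to 0.80) in MDA-LM2 cells and 0.43 (-0.31 to 1.18) after HNRNPC knockdown. CDKN1C had 0.64 (-0.22 to 1.50) and 0.56 (-0.47 to 1.59). All of these intervals include 0. The CDK-binding proteins, such as the centrosomal CDK5RAP2, numbered 4, and none had a raw p under 0.05.

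Among the E2F factors, E2F6, a repressor that acts without the retinoblastoma protein, had a logAPAR of -1.45 (-2.83 to -0.07, the authors' p = 0.0393) in sgHNRNPC cells and -0.79 (-1.67 to 0.09, p = 0.0776) in MDA-LM2 cells. The distal site was the end of a nonsense-mediated decay transcript, which is also the 3′ end of the annotated gene. Which transcripts used that site was not tested. Centred on the median of all pairs, a setting chosen after seeing the data, the sgHNRNPC value was -1.37 with a p over 0.05. E2F1, an activator of S-phase genes, had a pair with -0.49 (-1.02 to 0.04) in MDA-LM2 cells and 0.27 after HNRNPC knockdown. The difference for this pair was -0.76 (-1.51 to -0.00), which did not pass an adjusted p of 0.05. The outermost E2F1 pair in sgHNRNPC cells was another, with 0.32 (-0.93 to 1.57). E2F3, another activator, had 0.11 and -0.11 with intervals over 1 unit either way. Values were below 0 for 4 of 5 E2F genes in sgHNRNPC cells, with a median of -0.83, and for 2 of 4 in MDA-LM2 cells, with a median of -0.19.

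Origin licensing and firing genes had values below 0 in 8 of 12 cases in MDA-LM2 cells and in 7 of 11 after knockdown, with medians of -0.23 and -0.57. MCM8, a helicase of recombination repair rather than of the replicative MCM ring, had a logAPAR of 2.29 (0.63 to 3.95, the authors' p = 0.00681, adjusted p = 0.974) in MDA-LM2 cells for the first over the second of its sites, 677 nt apart. Against the third and the last site, the second site had -2.02 (-3.70 to -0.34, the authors' p = 0.0184) and -2.29 (-4.19 to -0.40, p = 0.0174). Its outermost pair had -0.01, so the estimates set the second site below the others, and the outermost pair did not show it. The first pair had -0.82 (-2.72 to 1.07) in sgHNRNPC cells, with a difference of 3.11 (0.59 to 5.63). MCM4, a subunit of the replicative helicase, had a logAPAR of -0.54 (-0.96 to -0.11, the authors' p = 0.0131) in sgHNRNPC cells, towards the distal end, and 0.17 (p = 0.384) in MDA-LM2 cells. The difference between the comparisons was 0.70 (0.14 to 1.27). The outermost MCM4 pair had 0.10 (-1.64 to 1.83) in sgHNRNPC cells and 1.45 (-0.28 to 3.18) in MDA-LM2 cells. MCM7, also of the helicase ring, had -0.34 (-1.32 to 0.64) and -0.99 (-3.60 to 1.62). CDC6, which loads the helicase, had -0.34 (-1.60 to 0.93) and, for another pair, -0.73 (-1.57 to 0.12), which was -0.09 (-1.26 to 1.08) in MDA-LM2 cells, and ORC6, a subunit of the origin recognition complex, was listed in sgHNRNPC cells only, with 0.39 (-3.14 to 3.92).

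Replicative polymerase and clamp loader genes had values above 0 in 3 of 6 cases in MDA-LM2 cells and in 6 of 8 after knockdown, with medians of 0.00 and 0.27. RFC1, the large subunit of the clamp loader, had 2 pairs at a raw p under 0.05 in MDA-LM2 cells. The logAPAR was -0.73 (-1.30 to -0.17, the authors' p = 0.0108) for an upstream end over a short transcript's end, and 0.73 (0.10 to 1.36, p = 0.0235) for that end over the full-length end. These estimates, which share the end of the short transcript, set it above the upstream and the full-length end, and the outermost pair had -0.01 (-0.54 to 0.52). The short transcript's end over a genomic site had 0.19 (the authors' p = 0.752). In sgHNRNPC cells the 2 pairs at a raw p under 0.05 in MDA-LM2 cells had -0.45 (-1.42 to 0.53) and 0.24 (-0.55 to 1.03), and the outermost pair had -0.21 (-0.94 to 0.52). POLE3, a histone-fold subunit of polymerase epsilon, had among the narrowest intervals in both comparisons, with 0.02 (-0.21 to 0.25) in MDA-LM2 cells and 0.02 (-0.25 to 0.29) after HNRNPC knockdown. Shifts beyond these bounds lie outside the 95% intervals.

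Of the anaphase-promoting complex, which marks mitotic cyclins and securin for destruction, 5 of 7 genes had values below 0 in MDA-LM2 cells and 6 of 8 had them after knockdown, with medians of -0.15 and -0.18. ANAPC16 had a logAPAR of 0.69 (0.08 to 1.31, the authors' p = 0.0277) in MDA-LM2 cells for sites 1440 nt apart, and 0.50 (-0.24 to 1.24) in sgHNRNPC cells, while the outermost pair had 0.17 (-0.94 to 1.27) and -0.05 (-1.17 to 1.07). CDC27, the APC3 subunit, had, for the lowest-p of its 21 pairs, 0.72 (0.04 to 1.40, the authors' p = 0.0385) for sites 1029 nt apart and -0.19 in sgHNRNPC cells. Its outermost pair had values of the opposite sign, -0.09 (-0.48 to 0.29) in MDA-LM2 cells and 0.58 (-0.09 to 1.24) in sgHNRNPC cells. ANAPC1, the scaffold subunit, had -0.65 (-1.82 to 0.51) for the outermost pair in MDA-LM2 cells, and the same pair had -0.04 (-1.20 to 1.13) in sgHNRNPC cells. The outermost pair there was another, with -0.84 (-4.83 to 3.15).

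Spindle checkpoint genes had values below 0 in 2 of 5 cases in MDA-LM2 cells and in 4 of 5 after knockdown, with medians of 0.22 and -0.03. BUB3, a WD-repeat protein that brings BUB1 and BUBR1 to kinetochores, had 2 pairs at a raw p under 0.01 in MDA-LM2 cells. The third of its 4 sites over the last, 665 nt away, had a logAPAR of -0.45 (-0.76 to -0.14, the authors' p = 0.00449, adjusted p = 0.974). The first site over the third, 855 nt away, had 0.67 (0.19 to 1.16, the authors' p = 0.00678). These estimates set the third site below the first and the last, while the outermost pair had 0.22 (-0.19 to 0.64, the authors' p = 0.293). The second site over the third had 0.25 (the authors' p = 0.386). In sgHNRNPC cells the 2 pairs at a raw p under 0.01 in MDA-LM2 cells had 0.13 (-0.30 to 0.55) and -0.57 (-1.42 to 0.29), and the outermost pair had -0.44 (-1.21 to 0.33). The differences between the comparisons for those 2 pairs were -0.57 (-1.10 to -0.05) and 1.24 (0.25 to 2.22), and neither passed an adjusted p of 0.05. BUB1, the checkpoint kinase, had -0.93 (-2.19 to 0.33) for its outermost pair in MDA-LM2 cells, and MAD2L1, the checkpoint effector, had 0.71 (-0.26 to 1.68). The same pairs had -0.73 (-4.41 to 2.96) and 0.14 (-0.54 to 0.81) in sgHNRNPC cells, where the outermost pairs were different ones, with -0.43 (-4.47 to 3.61) and 2.02 (-1.45 to 5.50). BUB3 lies at chr10:123154402-123170467 on the + strand of GRCh38. The site positions of BUB3 are of an unnamed build, so no sequence is shown for them.

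**Figure D2:**
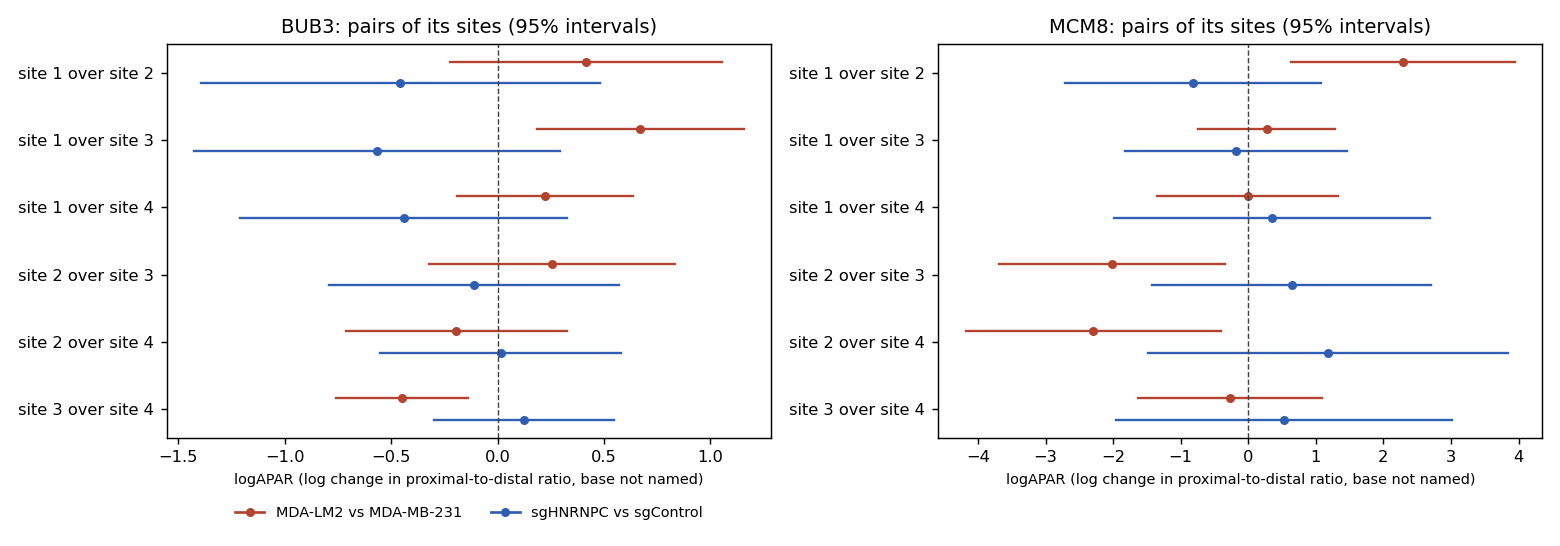
The logAPAR of pairs of BUB3 and MCM8 sites, numbered from the most proximal, is plotted with 95% intervals for both comparisons. In MDA-LM2 cells the 2 BUB3 intervals that leave out 0 both involve the third site and the 3 MCM8 intervals that do so all involve the second site, while every sgHNRNPC interval plotted includes 0.

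The cell cycle phosphatases CDC14B, CDC25A, CDC25B and CDC25C, the CDC25 members of which remove inhibitory phosphates from the kinases, had no pair at a raw p under 0.05. Values were below 0 in 2 of 3 cases in MDA-LM2 cells and in 3 of 4 after knockdown, with medians of -0.38 and -0.29. CDC25A was listed in sgHNRNPC cells, with -0.43 (-1.92 to 1.06).

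Centrosomal CEP genes were the most numerous role, and had values below 0 in 13 of 26 cases in MDA-LM2 cells and in 11 of 24 after knockdown, with medians of 0.01 and 0.13. In MDA-LM2 cells CEP85L had a logAPAR of 2.16 (0.40 to 3.91, the authors' p = 0.0159). CEP250, the centriole linker C-Nap1, had 0.40 (0.00 to 0.79, the authors' p = 0.0486), over 0.05 after z-scores were rescaled. For both pairs the proximal site was an end that the annotation marks as not found, and whether it is a true poly(A) site was not tested. A CEP85L pair with a genomic proximal site and the same distal end had 1.75 (0.12 to 3.37, the authors' p = 0.0349). The outermost pairs had 0.22 (-2.20 to 2.65) for CEP85L and 0.28 (-0.81 to 1.37) for CEP250. In sgHNRNPC cells the lowest-p pairs of MDA-LM2 cells had 0.51 and 0.23, with raw p-values over 0.05. CEP55, which acts in the final cut between daughter cells, had 0.36 (-0.23 to 0.95) and 0.74 (-0.63 to 2.11) for the outermost pair.

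In the group of other name matches, CDKN2AIPNL, a paralogue of a CDKN2A-interacting protein, had a logAPAR of 1.04 (0.11 to 1.96, the authors' p = 0.0282) in sgHNRNPC cells and -0.13 (p = 0.852) in MDA-LM2 cells. CDC37 had -0.06 (-0.28 to 0.15) and -0.07 (-0.43 to 0.28), again with narrow intervals.

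**Figure D3:**
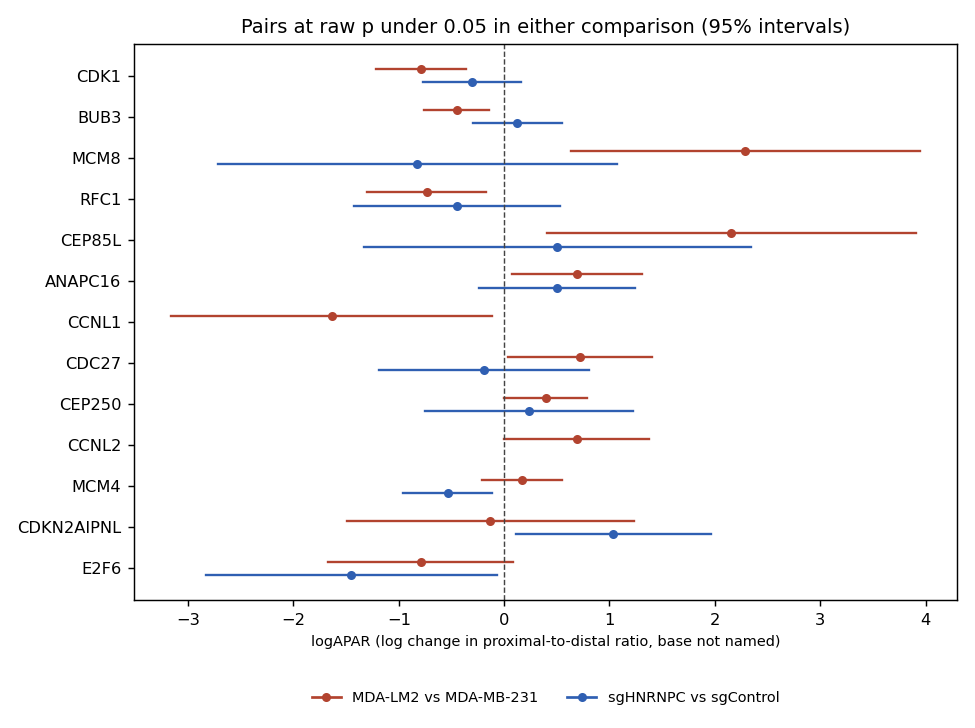
The lowest-p pair of each member named in this report with a raw p under 0.05 in either comparison is plotted as logAPAR with its 95% interval in both comparisons, where the pair was listed in both. Of these genes, CDK1 has the MDA-LM2 interval that lies farthest from 0 for its width.

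**Figure D4:**
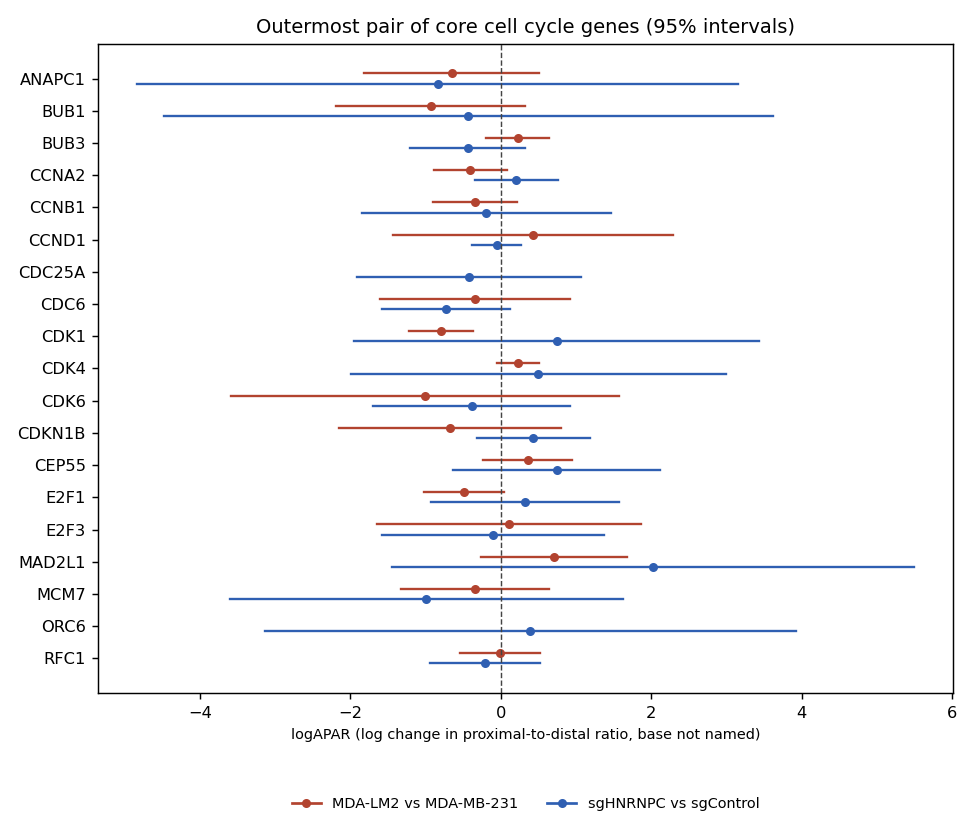
The logAPAR of the outermost pair is plotted with 95% intervals for 19 of 26 core genes fixed by name, those listed in either table. The outermost pair is not the same in both tables for 9 of the 17 genes listed in both. Of the intervals plotted, only that of CDK1 in MDA-LM2 cells leaves out 0.

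The comparisons have separate control samples and could be set side by side. The tables shared 291 pairs in 87 members, and 0 of these pairs had a raw p under 0.05 in both, beside 51 of 21296 shared pairs of all genes, or 0.239%. A two-sided Wald test of the difference, run on all shared pairs, gave 0 member pairs at an adjusted p under 0.05, beside 1 of 21293 shared pairs of all genes, or 0.00470%, and 6 at a raw p under 0.05, or 2.06%, beside 1.97% of all shared pairs. These were pairs of BUB3, MCM4, MCM8 and E2F1. For 59 members with the same outermost pair in both tables, Spearman's rho across genes was 0.107, beside 0.0394 over 4224 genes. It was below 0 over all shared pairs of the members (-0.0406) and over the 9 genes with an implied standard error under 0.5 in both tables (-0.583). Of the 59 members, 31, or 52.5%, had the same sign, beside 51.9% of all genes. Genes are not independent replicates, so no p is given.

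**Figure D5:**
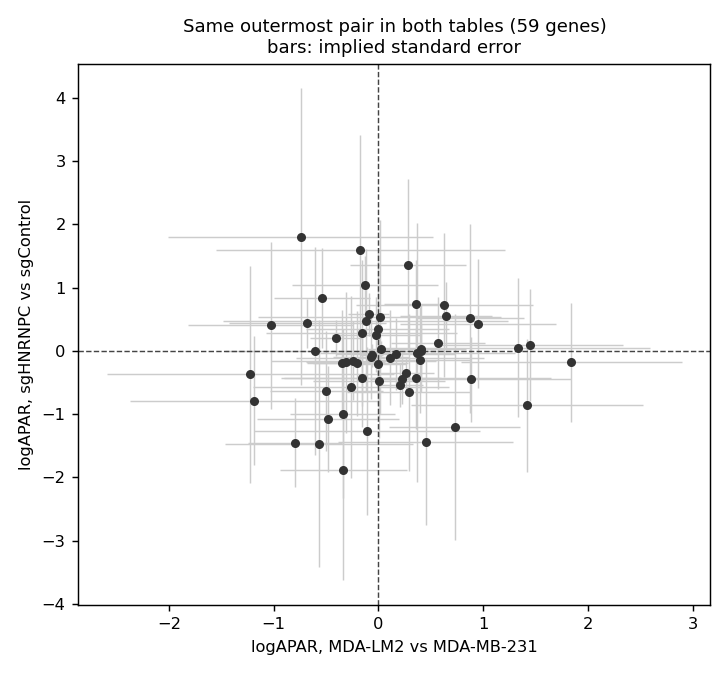
For 59 members with the same outermost pair in both tables, the logAPAR in MDA-LM2 cells is plotted against that in sgHNRNPC cells, with bars of 1 implied standard error. The points fall in all 4 quadrants, with 19 of them below 0 in both comparisons and 12 above 0 in both.

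Other cell cycle genes outside the symbol pattern were taken from a list of 85, of which 65 were in each table. In MDA-LM2 cells 12 had a pair at a raw p under 0.05, 7 towards the distal and 5 towards the proximal site, or 18.5%, beside 11.01% of all genes, and 2 had a raw p under 0.01, or 3.08%, beside 2.72%. The outermost value was below 0 in 44.6% of the list in MDA-LM2 cells and in 67.7% after knockdown, beside 52.3% and 57.9% of all genes. MKI67, the proliferation marker, had 0.65 (0.34 to 0.97, the authors' p = 5.7e-05, adjusted p = 0.129), towards the proximal site. GINS4, a subunit of the replicative helicase, had -1.24 (-1.93 to -0.54, the authors' p = 0.000517, adjusted p = 0.333). The same pairs had 0.05 (-0.72 to 0.81) and -0.32 (-1.45 to 0.82) in sgHNRNPC cells. In sgHNRNPC cells 3 genes of the list had a raw p under 0.05, or 4.62%, beside 4.51% of all genes. At a raw p under 0.01 there was 1 gene, or 1.54%, beside 1.62%. That gene was also the 1 of 65 at an adjusted p under 0.05, beside 0.338% of all genes. BIRC5 (survivin), of the chromosomal passenger complex, had -0.78 (-1.15 to -0.41, the authors' p = 3.8e-05, adjusted p = 0.0457), towards the distal site, and -0.00 (-0.38 to 0.37) in MDA-LM2 cells.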

How the data were processed

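Reads of mRNA 3′ ends were processed by the authors, with UMI-tools, Salmon 0.14.1 and hg38 named in the submitters' processing notes. The authors counted reads per unique 3′ end and compared the sites of a gene in pairs with APAlog, which is a form of logistic regression. The deposited tables hold only results of the authors' own comparisons: logAPAR, a log ratio, and a raw p-value and q-value per pair. These deposited values are what is printed, and the comparisons were not refitted. Adjusting the deposited p-values of a whole table by Benjamini-Hochberg returned its q-values.

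Standard errors were implied as the absolute logAPAR divided by the normal quantile of p. A gene was called by its lowest-p pair at a raw p under 0.01. The difference between comparisons was a two-sided Wald test on all shared pairs, with Benjamini-Hochberg adjustment. It was also run on simulated pairs, whose z-scores had unit spread, while the spread over all sgHNRNPC pairs was 0.705. The simulation therefore cannot show how well the test is calibrated for these data. Genes named were those at a raw p under 0.05, fixed core genes by their outermost pair, with values of the same pair in the other table where it was listed there, and, singled out after their values were seen, CDKN1C, CDC37, POLE3, CDK16, the CCND1 pair printed and the listed genes outside the symbol pattern (MKI67, GINS4 and BIRC5). At a raw p under 0.05, 1 further member entered the counts but is not reported here. Genomic site positions are of an unnamed build and served as labels and for distances only. Transcript ends were placed with GENCODE release 44. The tools were scipy 1.17.1 and numpy 2.4.6 for statistics, pandas 2.3.3 for tables and matplotlib 3.10.9 for plots, under Python 3.11.15. The members and lists were chosen with earlier results of these data known.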

Additional observations from a re-analysis of the deposited data

How the results depend on the processing

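The members called in MDA-LM2 cells, 3 at a raw p under 0.01, numbered 11 at a raw p under 0.05, 1 at a raw p under 0.001, 0 at an adjusted p under 0.1, 1 by the outermost pair and 0 by pairs of 2 transcript ends, beside 11.01%, 0.642%, 0.168%, 1.02% and 0.795% of all genes. Under the other settings, the count was 2 or 3. It was 2 by pairs of 2 genomic sites (2.11%), beside 0.764% of all genes. With an absolute logAPAR of at least 0.5 it was 3 (3.16%), beside 2.40%. In sgHNRNPC cells the count of 0 became 3 at a raw p under 0.05, beside 4.51% of all genes. It also became 3 (MCM4, CDKN2AIPNL and E2F6) when z-scores, whose spread over all pairs was 0.705, were rescaled to unit spread, a setting chosen after seeing the data that calls 6.04% of all genes there and 2.37% in MDA-LM2 cells. Spearman's rho of 0.107 became -0.0406 over all 291 shared pairs and -0.583 over the 9 genes with an implied standard error under 0.5 in both tables. Beyond the choice of threshold, the cause was not tested.

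The shares with values below 0 ranged from 48.1% to 57.0% in MDA-LM2 cells and from 47.8% to 61.5% in sgHNRNPC cells. The 48.1% and the 61.5% were over only the 27 and 13 members, respectively, with an implied standard error under 0.5. The medians ranged from -0.08 to 0.02 and from -0.14 to 0.05. In MDA-LM2 cells the sign changed over all member pairs (0.00862) and with an implied standard error under 0.5 (0.0213). In sgHNRNPC cells it changed over all member pairs (0.0539) and after centring (0.00593). Over all pairs of all genes the medians were below 0, at -0.0150 (MDA-LM2) and -0.0767 (sgHNRNPC). Leaving out pairs with an end marked as not found, also chosen after seeing the data, gave counts of 3 and 0 again. The shares of all genes were then 2.48% (MDA-LM2) and 1.56% (sgHNRNPC). Of single genes, CEP250 and CCNL2 had a raw p over 0.05 after rescaling, and E2F6 after centring on the table's median. No paired analysis was possible because only comparison values, not samples, were analysed here, and for the same reason no replicate could be left out. The unknown depth limits what can be said of pairs with wide intervals.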
